A study of Mus musculus with 6 samples.

Results

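The genes described here encode the subunits of the proteasome. They were chosen by name, as every gene on the array whose symbol is Psma, Psmb, Psmc or Psmd followed by a number, without the interferon-inducible subunits Psmb8, Psmb9 and Psmb10. This gave 37 of the 36163 gene names on the array, measured by 45 of its 55681 probes, and 35 of the 37 could be tested among 18253 genes in all. Each gene was represented by its probe with the highest mean signal. The name rule also takes in Psmc3ip, whose product works in meiotic recombination and is no proteasome subunit, and 3 Psmd genes whose products help to assemble the complex.

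Peritoneal cavity (PC) B1a cells, the innate-like B cells that carry CD11b and CD5, were sorted from female C57Bl/6 mice aged 7 weeks. The 3 knockout samples came from p40-/- CD25-/- mice, which lack IL-2Rα (CD25) and serve as a model of primary biliary cholangitis, and the 3 control samples came from p40-/- CD25+/- mice, which keep 1 functional allele. Mice of both genotypes lack p40, the subunit that IL-12 and IL-23 share. Each sample pooled at least 3 mice and was hybridized to 1 one-colour Agilent array, so p-values measure only the spread between these 3 arrays against 3.

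The proteasome is the protease that takes apart proteins marked with ubiquitin. Its core is a barrel of stacked alpha and beta rings, with the peptide-cutting sites on beta subunits inside. A regulatory particle caps the barrel, with a base of ATPases that unfold the substrate and a lid that removes the ubiquitin chain. B cells depend on it for protein turnover, for NF-κB activation and for peptides shown on MHC class I, and in inflamed tissue interferon gamma exchanges 3 catalytic subunits for inducible ones.

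Values are log2 levels relative to the 75th percentile of each array, and a difference is the knockout mean minus the control mean on that log2 scale. That percentile was a signal of 264, 252 and 272 for the control samples and of 131, 66.5 and 162 for the knockout samples, whose arrays were thus dimmer, although 1 slide and 1 scan held all 6. Il2ra, the gene deleted in the knockout, was at 1.62, 1.13 and 1.35 in control and at -0.31, -0.59 and 0.86 in knockout cells, a difference of -1.38 ± 0.37 (SE, limma adjusted P = 0.122). Il12b, which encodes p40, was well above background on all 6 arrays, from -2.25 to -1.92 in control and from -2.52 to -1.80 in knockout cells, so its probe does not show the loss. Whether either probe lies in the deleted part of its gene is not given in the sources used here. The 6 B cell markers and the 6 B1a markers listed (among them Cd79a, Cd79b, Cd5 and Itgam) were well above background on all 6 arrays. So were 6 of the 8 T cell markers listed, so signal above background does not by itself show which cells were sorted.

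Of the 35 proteasome genes tested, 34 had a lower mean in knockout than in control PC B1a cells, beside 60.2% of all genes tested, a direction that 29 to 35 of the genes had under the other scalings and with 1 array left out. The differences were small, from -0.44 for Psmd13 to 0.04 for Psmb2, with a median of -0.23 beside a median of -0.12 over all 18253 genes. No proteasome gene passed an adjusted P of 0.05 in limma, as 0.0383% of all genes did, and none passed the 2-fold thresholds, as 3.52% did. At an unadjusted P under 0.05, 4 of the 35 were lower and 0 higher, beside 13.6% and 11.6% of all genes.

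The 3 knockout values lay below all 3 control values for 18 of the 35 genes, beside 21.6% of all genes tested, and above them for 0, beside 14.7%. Some of these 18 genes had a dimmer tested probe. On it the groups overlapped for Psma4, Psmb5, Psmc1, Psmc2 and Psmd12, and not for Psmc3 and Psmd10. The bright genes of the array also leaned to lower values. When all tested genes were split by signal into 4 bins of near equal size, 24 of the 35 proteasome genes fell in the bin of highest signal, where the median difference over all genes was -0.18 and 32% lay lower without overlap. A further 9 fell in the next bin, where the median was -0.21 and the share 29.8%. Higher values without overlap were found for 16.4% and 7.28% of the genes of these bins. With quantile normalization the median of the proteasome genes was -0.09, that of all genes -0.07, and 8 of the 35 lay lower without overlap, beside 16.8% of all genes.

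**Figure D1:**
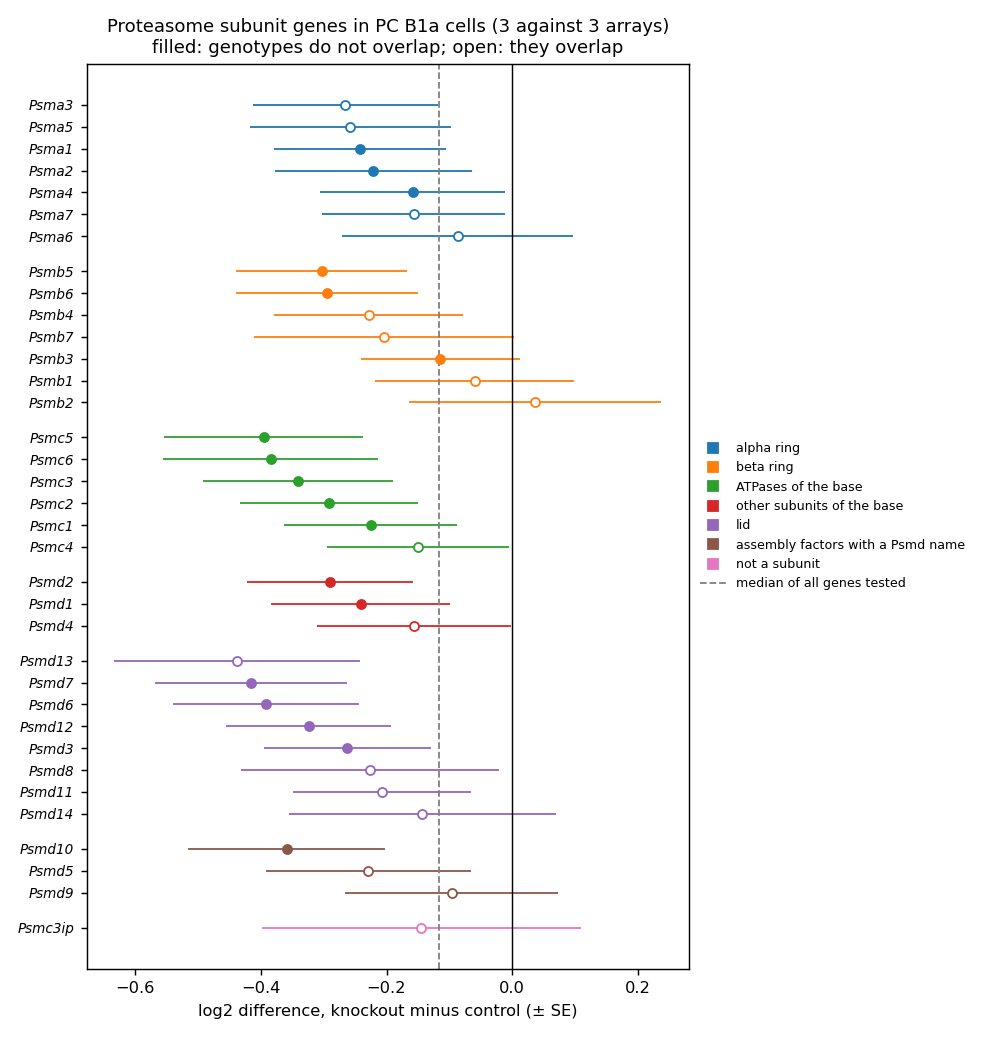
Log2 difference (knockout minus control, x axis) of each of the 35 proteasome genes, with the standard error of the limma fit as bars, ordered by sub-complex; filled points mark genes whose genotypes do not overlap, and the dashed line is the median over all genes tested. Of the 35 points, 34 lie below 0, and Psmb2 lies at 0.04.

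The alpha ring forms the gate through which substrates enter the barrel. All 7 of its genes tested had a lower mean in knockout cells, from -0.27 for Psma3 to -0.09 for Psma6, and the genotypes did not overlap for 3 of them (Psma1, -0.24, Psma2, -0.22, and Psma4, -0.16), beside 21.6% of all genes tested and 29.8% to 32% in the 2 bins of highest signal. Psma3 was at 5.96, 5.68 and 5.96 in control and at 5.61, 5.51 and 5.68 in knockout cells. The third knockout array was level with the second control array, so the groups met, and the difference of -0.27 ± 0.15 had an adjusted P of 0.277. The others were Psma5 (-0.26) and Psma7 (-0.16). Psma8, the alternative alpha subunit of the testis, was not well above background on any array and was not tested.

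The beta ring holds the catalytic sites. Of its 7 tested genes 6 had a lower mean in knockout cells, with a median difference of -0.20, and 3 lay lower without overlap, beside the same shares of 21.6% and 29.8% to 32%. Psmb5, which cuts after hydrophobic residues, was at 6.88, 6.81 and 6.92 in control and at 6.44, 6.61 and 6.65 in knockout cells. All 3 knockout values were below all 3 control values, with a difference of -0.30 ± 0.14 (SE), 19% lower, and an adjusted P of 0.212. Psmb6, which cuts after acidic residues, was at 6.15, 5.99 and 6.26 in control and at 5.77, 5.78 and 5.96 in knockout cells. Here too the groups did not overlap (-0.30 ± 0.14, adjusted P = 0.238).

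Psmb7, which cuts after basic residues, was at 2.11, 2.85 and 2.57 in control and at 2.30, 2.37 and 2.25 in knockout cells. The knockout values lay inside the control range, and the difference of -0.20 ± 0.21 had an adjusted P of 0.521. It was -0.41 without the first control array and -0.03 without the second. Psmb2, a structural beta subunit, was at 0.68, 1.39 and 1.19 in control and at 1.16, 1.14 and 1.07 in knockout cells, again inside the control range. Its difference of 0.04 ± 0.20 had an adjusted P of 0.914, and without the first control array it was -0.17. The remaining structural subunits were Psmb4 (-0.23), Psmb3 (-0.11, groups apart) and Psmb1 (-0.06). Psmb11, the catalytic subunit of the thymus, was not well above background on any array and was not tested.

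The probes of Psmb2 and Psmb7 each join 2 exons, so they lie across an intron in the genome (mm9 coordinates of the array files). They are shown because these 2 genes had the widest control ranges of the beta ring, and each is written 5′ to 3′ as on the array.
Psmb2, chr4:126361456-126364299, plus strand: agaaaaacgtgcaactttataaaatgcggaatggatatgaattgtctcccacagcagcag
Psmb7, chr2:38468966-38489385, minus strand: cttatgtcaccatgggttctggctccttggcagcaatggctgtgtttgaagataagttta

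The base of the regulatory particle contains a ring of 6 ATPases, and the median difference of its genes was -0.32. All 6 genes had a lower mean in knockout cells, 5 of them without overlap: Psmc5 (-0.40), Psmc6 (-0.38), Psmc3 (-0.34), Psmc2 (-0.29) and Psmc1 (-0.23). Psmc4 (-0.15) overlapped. Over all genes tested 60.2% had a lower mean and 21.6% lay lower without overlap, and in the 2 bins of highest signal 29.8% to 32% did. Psmc5 was at 3.87, 4.02 and 4.15 in control and at 3.56, 3.48 and 3.82 in knockout cells. Every knockout value was below every control value, with the third knockout array just under the first control array. The difference of -0.40 ± 0.16, or 24% lower, had an unadjusted P of 0.0404 and an adjusted P of 0.186. It was -0.20 with quantile normalization and -0.72 with normexp and the 75th percentile (adjusted P = 0.0182, with a range of 0.0182 to 0.45 over the alternatives).

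The other base subunits are the scaffold proteins Psmd1 and Psmd2 and the ubiquitin receptor Psmd4. Psmd2 was at 5.07, 5.02 and 5.20 in control and at 4.81, 4.77 and 4.84 in knockout cells. The 2 groups stood apart, each within a narrow range (-0.29 ± 0.13, adjusted P = 0.215). The difference was -0.10 with quantile normalization and -0.60 with normexp and the 75th percentile (adjusted P = 0.0269, with a range of 0.0269 to 0.611 over the alternatives). Psmd1 (-0.24) did not overlap either, and Psmd4 (-0.16) did.

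The lid carries the deubiquitinase Psmd14 on a frame of related subunits. All 8 lid genes tested had a lower mean in knockout cells, with a median of -0.29 and 4 without overlap, beside 21.6% of all genes and 29.8% to 32% in the bins of highest signal. Psmd13, a frame subunit, was at 3.36, 3.86 and 3.55 in control and at 3.41, 3.10 and 2.94 in knockout cells. The first knockout array lay above the first control array, so the groups overlapped, and the difference of -0.44 ± 0.20 (26.2% lower) had an adjusted P of 0.211. This was the lowest difference of the 35 genes as processed here, but not with quantile normalization, where Psmb5 (-0.31) was below Psmd13 (-0.24), nor without the second control array, where Psmd7 (-0.51) was below Psmd13 (-0.30).

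Psmd7, the partner of Psmd14, was at 3.42, 3.11 and 3.36 in control and at 2.83, 2.79 and 3.02 in knockout cells. The groups did not overlap, the difference was -0.42 ± 0.15 (25% lower), and its unadjusted P was 0.0292 (adjusted P = 0.165). Psmd6 (-0.39, unadjusted P = 0.0322) and Psmd3 (-0.26) did not overlap either. Psmd14 itself (-0.14), Psmd8 (-0.23) and Psmd11 (-0.21) overlapped.

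Psmd12, another frame subunit, was at 4.36, 4.30 and 4.34 in control and at 4.05, 3.90 and 4.08 in knockout cells, a difference of -0.32 ± 0.13 without overlap (unadjusted P = 0.0427, adjusted P = 0.189). It was -0.12 with quantile normalization, -0.15 in the deposited log2 values and -0.64 with normexp and the 75th percentile. A dimmer second probe of the same gene was at 1.49, 0.98 and 1.5 in control and at 1.59, 1.16 and 1.62 in knockout cells. On this probe the groups overlapped, and the difference of 0.13 ± 0.21 had the opposite sign. With the mean of the probes of the gene the difference was -0.09. Of 8 genes with more than 1 tested probe, 16 probes in all, Psmd12 was the single one whose probes differed in sign.

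The dimmer probe of Psmd12 is shown with those of Psmc5 and Psmd10, all of which cross an intron (mm9, 5′ to 3′), since the first departs from the rest of the lid and the other 2 represent the genes with the lowest difference in their sub-complexes as processed here.
Psmd12, chr11:107347092-107347728, plus strand: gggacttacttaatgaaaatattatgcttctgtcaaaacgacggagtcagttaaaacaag
Psmc5, chr11:106124192-106124376, plus strand: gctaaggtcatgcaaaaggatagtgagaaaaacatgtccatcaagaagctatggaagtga
Psmd10, chrX:137483840-137486736, minus strand: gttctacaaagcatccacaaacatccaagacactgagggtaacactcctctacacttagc

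Psmd5, Psmd9 and Psmd10 encode chaperones that bring the ATPase ring together and leave the finished complex. Psmd10, also known as gankyrin, was at 1.41, 1.73 and 1.40 in control and at 1.26, 1.03 and 1.17 in knockout cells. Its groups did not overlap (-0.36 ± 0.16, adjusted P = 0.206), and its second probe had a difference of -0.44. Psmd5 (-0.23) and Psmd9 (-0.10) overlapped, as did Psmc3ip (-0.14), which is not a subunit.

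The genes did not follow 1 pattern over the control arrays. Relative to each gene's mean over the 6 arrays, the median of the 35 genes was 0.12, 0.05 and 0.18 in control and -0.11, -0.24 and -0.02 in knockout cells. The lowest of these values belonged to the second knockout array, which was also the dimmest. All genes tested had medians of 0.05, 0.01 and 0.08 in control and -0.04, -0.11 and -0.01 in knockout cells, in the same order; the part of array signal in the proteasome values was not tested.

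**Figure D2:**
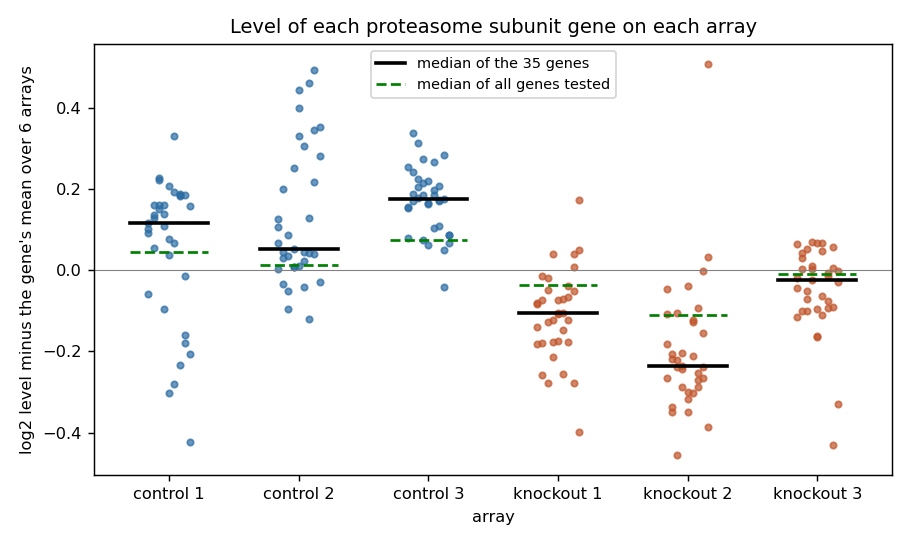
Log2 level of each of the 35 proteasome genes minus its own mean over 6 arrays (y axis), by array (x axis); points are genes, black lines their median and dashed lines the median of all genes tested. The black lines lie at 0.12, 0.05 and 0.18 in control and at -0.11, -0.24 and -0.02 in knockout cells.

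Within the control genotype, the second array exceeded the first for 14 of the 35 genes, by up to 0.75 for Psmb7, and was below it for 21, by up to 0.31. It exceeded it by more than 0.3 for 10 genes: Psmb7, Psmb2, Psmd8, Psma6, Psmd14, Psmd13, Psmd9, Psmb1, Psmd5 and Psmd10. Differences of that size between arrays of 1 genotype were as large as those between genotypes. The start position that the array files give for each probe, read here as its place in the transcript although the files do not define it, moved with the values. Across the 35 genes, Spearman's rho between that start and the genotype difference was -0.61, and between the start and the difference of the first 2 control arrays (second minus first) it was -0.44. Over 11423 tested genes with a RefSeq messenger RNA accession, the same values were -0.07 and -0.13. These describe genes read on the same 6 arrays, which are not independent replicates, and the part of probe position in the genotype differences was not tested.

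In cells exposed to interferon gamma, Psmb9, Psmb10 and Psmb8 take the places of Psmb6, Psmb7 and Psmb5. The difference between inducible and constitutive probe on each array was therefore compared between genotypes. A change in this log2 ratio shows that the 2 genes differed unequally between genotypes and says nothing of their relative amounts. The ratio of Psmb9 to Psmb6 was -0.65, -0.58 and -0.84 in control and 0.17, -0.18 and -0.23 in knockout cells. All 3 knockout ratios were above all 3 control ratios, by 0.61 on average (1.53-fold).

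The ratio of Psmb8 to Psmb5 was -0.91, -0.75 and -0.83 in control and -0.23, -0.60 and -0.53 in knockout cells, higher by 0.38 (1.3-fold) and again without overlap. For both pairs the exact two-sided permutation P was 0.1, the smallest that 3 arrays against 3 allow, and 0.15 after adjustment over the 3 pairs. The ratio of Psmb10 to Psmb7 was 4.18, 3.45 and 3.77 in control and 4.07, 3.81 and 4.17 in knockout cells. These overlapped, with a difference of 0.21 and an exact permutation P of 0.5; the difference was 0.04 without the second control array, 0.40 without the first and 0.10 in the deposited log2 values. All 3 ratios were higher in knockout cells under every alternative processing and with each array left out. A scaling constant per array or another test cannot change such a ratio, so part of this stability was fixed in advance. Quantile normalization, background correction, the deposited values, the mean of probes and leaving out arrays could change it.

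**Figure D3:**
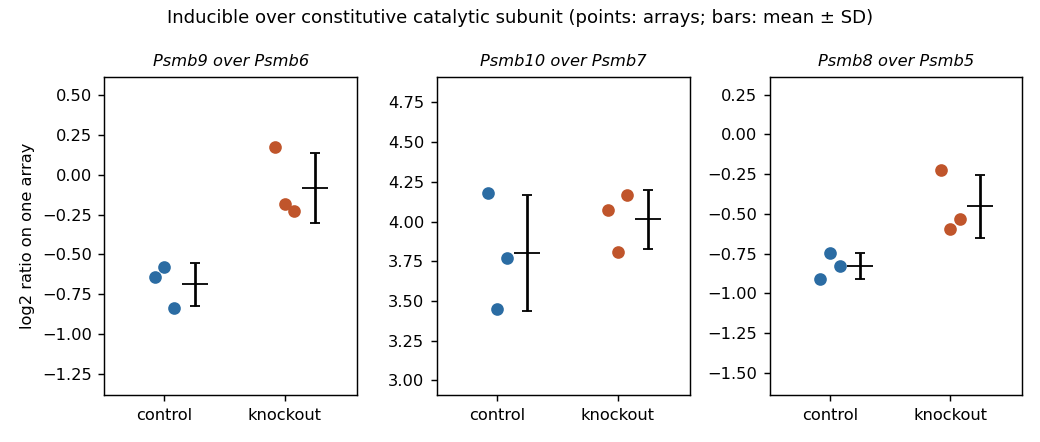
Log2 ratio of inducible to constitutive catalytic subunit on each array (y axis) for Psmb9 over Psmb6, Psmb10 over Psmb7 and Psmb8 over Psmb5; points are arrays, and bars the mean ± SD of 3 arrays. The points of the genotypes are apart for Psmb9 over Psmb6 and Psmb8 over Psmb5, with mean differences of 0.61 and 0.38, and overlap for Psmb10 over Psmb7.

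Of the inducible genes themselves, Psmb9 was at 5.50, 5.41 and 5.42 in control and at 5.95, 5.60 and 5.73 in knockout cells. It was higher on every knockout array (0.31 ± 0.15, adjusted P = 0.225), although its difference was -0.01 where normexp background correction went before the 75th percentile. Psmb8 (0.07) and Psmb10 (0.01) overlapped, and their differences were -0.27 and -0.30 in that setting. Of the 6 interferon gamma response genes tested, all 6 had a higher mean in knockout cells, 1 without overlap, a share near the 14.7% of all genes tested, and their summed linear level ranged from 88.5 to 90.7 times the 75th percentile on the control arrays and from 84.6 to 118 on the knockout arrays. The part of that response in the ratios was not tested.

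Other genes of the ubiquitin-proteasome pathway were described from a list of 39, of which 38 were on the array under the listed name and were tested. The adjusted P and the 2-fold thresholds were each passed by 0 of them, although of those named with all their values Psmg1 passed the adjusted P in 3 alternatives and Psme4 and Rps27a in 2 each. Of the 38, 23 had a lower and 15 a higher mean in knockout cells, 12 lay lower and 4 higher without overlap, and 3 in each direction had an unadjusted P under 0.05. Beside these counts, 60.2% of all genes tested had a lower mean, 21.6% lay lower and 14.7% higher without overlap, and 13.6% were lower and 11.6% higher at that unadjusted P. The median difference of the 38 was -0.18.

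The assembly factors Psmg1 to Psmg4 and Pomp, which build the core particle, had lower means in knockout cells, 5 of 5, with 4 not overlapping, beside 21.6% of all genes tested and 29.8% to 32% of those with high signal. Psmg1 was at 4.01, 3.95 and 4.0 in control and at 3.36, 3.37 and 3.57 in knockout cells. The groups stood well apart, and the difference of -0.55 ± 0.14 (31.8% lower) had an unadjusted P of 0.00442 and an adjusted P of 0.112. Psmg3 (-0.39), Psmg4 (-0.34) and Psmg2 (-0.32) did not overlap, and Pomp (-0.34) did.

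The proteasome activators, which open the barrel without the ubiquitin-dependent cap, had higher means, 4 of 4, while 60.2% of all genes tested had a lower mean. Of the 4, 1 lay higher without overlap, beside 14.7% of all genes tested. Psme4 was at 0.38, -0.13 and 0.23 in control and at 1.04, 0.75 and 0.70 in knockout cells. Every knockout value was above every control value (0.67 ± 0.19, 1.59-fold, unadjusted P = 0.00823, adjusted P = 0.123). With the mean of the probes of the gene the difference of Psme4 was 0.45 (limma adjusted P = 0.213). The interferon-inducible activators Psme1 (0.17) and Psme2 (0.10) overlapped, as did Psme3 (0.20), and with normexp and the 75th percentile Psme1 was at -0.16 and Psme2 at -0.25. The inhibitor Psmf1 (-0.28) overlapped as well.

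Of the ubiquitin genes, Rps27a encodes ubiquitin fused to a ribosomal protein. It was at 9.42, 9.44 and 9.47 in control and at 9.96, 10.21 and 9.90 in knockout cells. Each knockout value was above every control value (0.58 ± 0.14, 1.5-fold, unadjusted P = 0.00452, adjusted P = 0.113), and with other processing its difference lay between 0.03 and 0.68. The polyubiquitin gene Ubb (0.04) overlapped.

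Of the genes that control transcription of the proteasome, Nfe2l1, the factor that raises subunit genes when proteasomes are blocked, had a difference of 0.16, and Ddi2, the protease that activates it, 0.09. Ngly1, the enzyme that removes its glycans, was at -1.0, -1.40 and -1.14 in control and at -1.17, -1.98 and -1.81 in knockout cells, with an overlap at the first knockout array (-0.47 ± 0.24, adjusted P = 0.248). Its difference was -0.71 without knockout array 1, -0.31 without knockout array 2 and 0.05 with normexp and the 75th percentile. All 4 genes of this group overlapped. The ubiquitin-activating enzymes Uba1 (-0.25) and Uba6 (-0.19) lay lower without overlap, as did Usp14 (-0.31) and Uchl5 (-0.29), the deubiquitinases that dock on the cap. Of the 7 tested partners of the regulatory particle, Usp14 and Uchl5 among them, 5 had lower and 2 higher means, and 4 lay lower without overlap. All 8 shuttle and unfoldase genes had lower means, with Rad23b (-0.36) and Nploc4 (-0.24) not overlapping. Over all genes tested 60.2% had a lower mean and 21.6% lay lower without overlap, and in the 2 bins of highest signal 29.8% to 32% did.

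**Figure D4:**
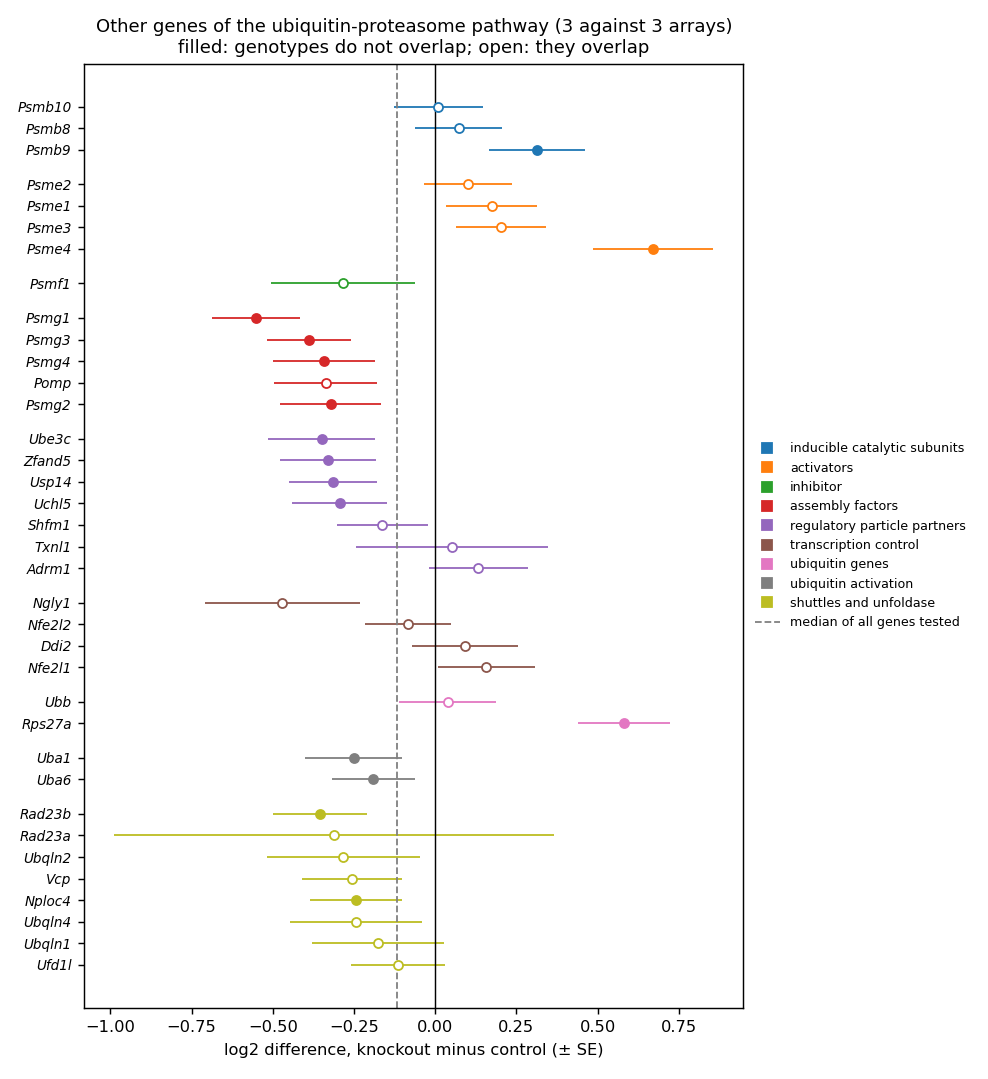
Log2 difference (knockout minus control, x axis) of 36 of the 38 other genes of the pathway that were tested, with the standard error of the limma fit as bars, ordered by group; filled points mark genes whose genotypes do not overlap, and the dashed line is the median over all genes tested. The assembly factors lie to the left of 0, with Psmg1 at -0.55, and the activators to the right, with Psme4 at 0.67.

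The promoters of the members were read from RefSeq windows (GRCm38.p6) of 300 bases, 250 before and 50 after the gene start, found for 30 of the 37 genes, 2 of them with more than 1 window. On both strands, 3 motifs were searched, none of which contains another. The antioxidant response element core TGACNNNGC occurred in a window of 5 of the 30 genes (16.7%), beside 14% of 27025 genes. The CCAAT box, CCAAT, occurred in 13 (43.3%), beside 41.1%, and the ETS-type core GGAAGT in 16 (53.3%), beside 26.5%. The 5 genes with the antioxidant core were Psmb5, Psmb6, Psmc6, Psmd9 and Psmd12. Psmb7, the other constitutive catalytic subunit, had no window and was not searched. Matches are occurrences of these letters and were not tested for binding.

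The 250 bases before the gene start are shown for Psmb5 and Psmb6, the catalytic subunits with the antioxidant core, 47 and 9 bases before the start, and for Psmc1, which holds 3 copies of the ETS-type core and 1 CCAAT box. They are written 5′ to 3′ on the strand of the gene, with motif letters of either strand in capitals.
Psmb5, chr14:54617996-54618245, minus strand: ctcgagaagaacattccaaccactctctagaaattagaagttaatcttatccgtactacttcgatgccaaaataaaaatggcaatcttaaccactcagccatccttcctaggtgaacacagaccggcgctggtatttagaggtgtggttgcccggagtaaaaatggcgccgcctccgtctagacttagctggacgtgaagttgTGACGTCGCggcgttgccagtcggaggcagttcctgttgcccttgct
Psmb6, chr11:70525107-70525356, plus strand: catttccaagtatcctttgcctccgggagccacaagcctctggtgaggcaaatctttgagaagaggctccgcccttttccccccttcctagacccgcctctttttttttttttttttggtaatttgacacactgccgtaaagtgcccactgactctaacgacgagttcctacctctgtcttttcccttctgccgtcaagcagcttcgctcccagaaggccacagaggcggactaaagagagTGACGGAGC
Psmc1, chr12:100109952-100110201, plus strand: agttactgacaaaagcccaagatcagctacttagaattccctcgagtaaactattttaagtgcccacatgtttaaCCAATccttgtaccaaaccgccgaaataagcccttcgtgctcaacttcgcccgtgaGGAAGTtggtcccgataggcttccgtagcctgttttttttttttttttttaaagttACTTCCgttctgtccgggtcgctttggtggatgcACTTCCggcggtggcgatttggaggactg

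Lists of markers of other states and cell types were read beside these values, and 0 of their genes passed the adjusted P. The 9 of 11 cycling cell markers that were well above background on all 6 arrays had lower means in knockout cells (60.2% over all genes tested), by -1.07 to -0.49, and the summed linear level of the whole list was 65.3 to 76.3 times the 75th percentile on the control arrays and 45.4 to 51.4 on the knockout arrays. The 4 plasma cell markers of this kind also had lower means, by -1.92 to -0.30, with summed levels of the list of 68.6 to 75.6 and 46.7 to 59.5, and Tnfrsf17 was not well above background on any array. A further plasma cell marker and 2 further cycling markers were well above background on some arrays alone and are left out of these counts. The summed levels of the T cell list, 268 to 281 on the control arrays and 222 to 302 on the knockout arrays, overlapped, with 4 of 6 tested genes higher. So did those of the macrophage list, 14.4 to 26.7 and 11.8 to 23.0, with lower means for the 5 genes well above background throughout. Of the 8 genes on each of these lists, 6 of the T cell list and 5 of the macrophage list were well above background on all 6 arrays, and 1 of each, Trat1 and Cd163, on none. None of the 5 granulocyte and mast cell markers was well above background on all 6 arrays. The part of these lists in the proteasome differences was not tested, and in a pooled RNA sample a change in the share of a cell type and a change in RNA per cell cannot be told apart.

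The size of the shift depended on the scaling. The median of the proteasome genes was -0.14 with scaling on the median of detected probes, beside -0.02 over all genes, and -0.10 in the deposited log2 values, beside -0.08. Where normexp correction came before the 75th percentile it was -0.53, beside -0.10, and 19 of the 35 genes then passed an adjusted P of 0.05 in limma, beside 35.5% of all genes. Each of these 19 had a lower mean in knockout cells. Among them were Psma3, Psmb5, Psmb6, Psmd7, Psmd12 and Psmd13, with Psmc5 and Psmd2, at -0.59 to -0.72 and adjusted P values of 0.0182 to 0.0307, against adjusted P values of up to 0.416 to 0.718 in other alternatives.

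**Figure D5:**
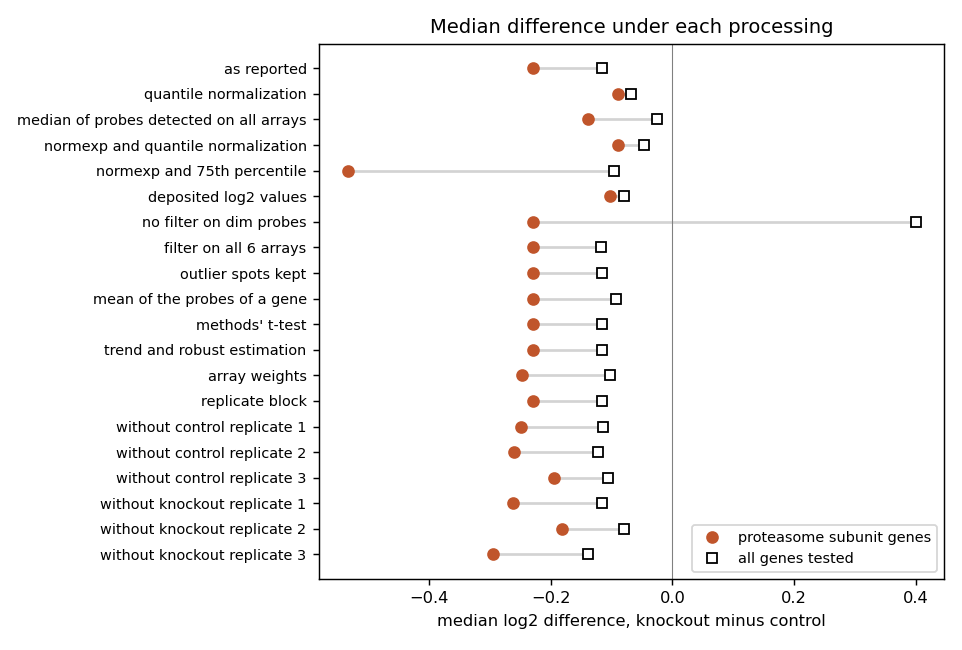
Median log2 difference (knockout minus control, x axis) of the proteasome genes (filled circles) and of all genes tested (open squares) under each processing (y axis). The proteasome median lies below 0 in every row, from -0.53 to -0.09, and close to the median of all genes with quantile normalization.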

How the data were processed

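Total RNA of sorted PC B1a cells was labelled with Cy3 and hybridized to one-colour Agilent mouse arrays. Per the labels, signals were read with Feature Extraction (10.7.1.1). The intensity values the authors deposited have the local background removed and no scaling from array to array, and 1 further deposited table holds log2 values. Here log2 of the processed signal minus each array's 75th percentile over 59305 non-control spots was used. Spots marked as outliers (163 to 251 per array) were left out and spots of a probe averaged. Tests took in probes marked well above background on every array of either genotype (24754 probes, 18253 genes, the probe with the highest mean signal per gene). Genotypes were compared with limma 3.58.1 in R 4.3.3 and the Benjamini-Hochberg method over all genes. The fit was tested on simulated data. Of 50 genes simulated with a true difference of -0.3, 0 passed the adjusted P and 28% had an unadjusted P under 0.05. A gene that does not pass may thus still differ by that much. The 2-fold thresholds are a 2-fold difference with an unadjusted P of at most 0.05. The depth of an array is not a count, and the number of arrays limits the precision. All 37 proteasome genes were matched to RefSeq by accession under the same symbol. Coordinates of probes are those of the array files (mm9). The members and lists were chosen with earlier results of these data known. Members named with all values are the 3 with the largest increase (of which 1 was above 0, and that 1 is named) and decrease, the 3 constitutive catalytic subunits, the largest difference of each sub-complex and genes with probes of opposite sign; of the pathway list they are Psmb8, Psmb9, Psmb10, Psme1, Psme2 and the 2 with the largest increase and decrease, with others by difference. The alternatives tried were other scalings, background corrections, filters and tests, and each array left out. Some genes that the lists cover are counted with their list and not reported here.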

Additional observations from a re-analysis of the deposited data

How the results depend on the processing

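The direction of the proteasome median held in all alternatives, but its size and the counts did not. Without the filter on dim probes the median over all genes, -0.12 as reported, was 0.40, beside -0.23 for the proteasome genes. The median was -0.0888 with quantile normalization, -0.1379 with the median of detected probes, -0.0886 with normexp and quantile normalization, -0.5332 with normexp and the 75th percentile and -0.1024 in the deposited values, and -0.29 to -0.18 with 1 array left out. Proteasome genes lower without overlap, 18 as reported, numbered 8, 9, 8 and 7 with quantile normalization, the median of detected probes, normexp with quantile normalization and the deposited values. Those lower at an unadjusted P under 0.05, 4 as reported, numbered 1, 0, 2, 29 and 1 with these 5 settings in the order above, 0 without the filter on dim probes, 14 with the methods' t-test, 12 with trend and robust estimation, 9 with array weights, and 0 to 4 with 1 array left out (0 without control array 3, 1 without control array 2, knockout array 1 or knockout array 2). Proteasome genes past the adjusted P numbered 19 with normexp and the 75th percentile.

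Over all genes, the count past the adjusted P, 7 as reported, was 23 with quantile normalization, 13 with normexp and quantile normalization, 6484 with normexp and the 75th percentile, 22 in the deposited values, 2 without a filter, 27 with the filter on all 6 arrays, 11 with the mean of probes, 2 with the methods' t-test, 754 with trend and robust estimation and 1444 with array weights. It was 3, 2 and 2 without control array 1, 2 or 3 and 11, 12 and 112 without knockout array 1, 2 or 3. The count past the 2-fold thresholds, 643 as reported, was 162 and 192 with normexp (quantile or 75th percentile), 10640 without a filter, and 603 to 1146 with 1 array left out, the highest without knockout array 3.

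Of 260 values of 20 named genes under the other 13 alternatives, 251 kept their direction and 15 of these passed the adjusted P. Among them were Psmg1 with normexp and the 75th percentile (0.0104), trend and robust estimation (0.0415) and array weights (0.0402), Psme4 with the first (0.0487) and the last (0.0463), and Rps27a with trend and robust estimation (0.0159) and array weights (0.0436). Over all alternatives the adjusted P ranged from 0.0104 to 0.348 for Psmg1, 0.0463 to 0.348 for Psme4 and 0.0159 to 0.87 for Rps27a. Psme2 reversed to -0.0049 with normexp and quantile normalization and -0.0055 in the deposited values. With normexp and the 75th percentile, Ngly1 was 0.051, Psmb10 -0.3015, Psmb2 -0.1023, Psmb8 -0.2706, Psmb9 -0.0058, Psme1 -0.1608 and Psme2 -0.2466. With 1 array left out Psmb10 ranged from -0.0365 to 0.0811, below 0 without control array 1 (-0.0028) or knockout array 1 (-0.0168) or 3 (-0.0365), and Psmb2 was -0.1662 without control array 1. The cause was not tested.

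With the replicate number as a block, 4 genes passed the adjusted P and 0 proteasome genes did. Same-numbered arrays deviated together with r = 0.19, 0.06 and 0.09, under 0.1 for 2 of the 3 numbers, and 5 of the 6 arrays correlated best with their own number; the labels name no shared animal, so the samples were taken to share only a number. Dim signal on the knockout arrays limits what low probes can show.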
